A study of Mus musculus with 6 samples.

Results

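Transforming growth factor beta (TGF-beta) signaling is described here in the soleus, a slow muscle of the calf, through 10 genes: the ligands *Tgfb1*, *Tgfb2* and *Tgfb3*, the latent TGF-beta binding proteins *Ltbp1*, *Ltbp3* and *Ltbp4*, the receptors *Tgfbr1*, *Tgfbr2* and *Tgfbr3*, and the matrix gene *Tgfbi*. They were chosen by name from 51912 genes with raw counts. All 10 had enough reads to be among the 14696 genes tested. RNA was sequenced from 3 heterozygous (HET) mice of the genotype Mustn1_KO-first_het and from 3 wild-type (WT) littermates, all C57BL6/N and 8 weeks old, and the labels name no treatment. The KO-first allele is present in the whole body and places a lacZ trap after exon 1 of *Mustn1*, the gene of a small protein of muscle, and HET mice keep 1 normal copy. Levels are given as normalized counts in CPM, reads scaled to the size of each library. Differences are log2 fold changes of HET over WT with a standard error (SE) and, unless stated otherwise, p-values of the quasi-likelihood test of edgeR, adjusted over the 14696 genes.

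TGF-beta ligands are made as inactive precursors. After cleavage the mature ligand stays wrapped in its propeptide, and this complex is tied by a latent binding protein to fibrillin and fibronectin in the extracellular matrix, from which integrins and proteases release it. Free ligand is bound by the type II receptor, in part presented by the type III receptor betaglycan, and the type II receptor then phosphorylates the type I receptor, which activates SMAD proteins that enter the nucleus. In skeletal muscle the pathway is known for driving fibroblasts to make matrix and for restraining the differentiation of myoblasts.

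The libraries held between 26790075 and 50368796 reads on genes. *Mustn1* was 14.2 ± 2.33 CPM in HET and 27.5 ± 3.89 CPM in WT mice (SD, n = 3), with -0.96 as the log2 fold change (SE 0.15, adjusted p = 0.0452), and the genotypes did not overlap. The labels give all mice as male, but reads on *Xist* numbered 3858 to 9154 per library, and the reads of 4 Y-linked genes together came to 0 to 12. WT mouse 3 stood apart from the other mice on the second principal component, at -19.8 against values between 1.59 and 6.62. The first component held 44.8% of the variance of the 500 most variable genes. On it WT mouse 3 lay at 0.625, the other WT mice at 14.5 and 21.3, and the HET mice between -15.7 and -5.91. Within genotypes, HET mouse 2 differed most in its counts, with a chi-square per gene of 42.1 and 46.8 against the other HET mice. The remaining pairs had values between 16.1 and 27.1. Overlaps in the level of a member that rest on WT mouse 3 are also given without it. The defining genes of muscle fibers, such as *Acta1* and *Ckm*, were abundant in all libraries, with 6 fiber markers at a summed 68700 to 80910 CPM in HET and 71372 to 74371 CPM in WT mice.

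The promoter regions of the member with the widest gap between genotypes, *Tgfbi*, and of the ligands with the smallest and the largest p, as far as a sequence was at hand, *Tgfb1* and *Tgfb2*, show how differently these genes are built upstream of their start sites. RefSeq promoters of GRCm38.p6 matched 8 of the 10 genes, and those of *Tgfb3* and *Tgfbr3* are named only. Capitals mark matches on either strand to CAGAC, the core of the SMAD box, to GGGCGG, the GC box bound by Sp-type factors, and to TATAAA, the TATA box. The AP-1 site TGANTCA was searched as well.

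*Tgfbi*, chr13:56609336-56609522, plus strand: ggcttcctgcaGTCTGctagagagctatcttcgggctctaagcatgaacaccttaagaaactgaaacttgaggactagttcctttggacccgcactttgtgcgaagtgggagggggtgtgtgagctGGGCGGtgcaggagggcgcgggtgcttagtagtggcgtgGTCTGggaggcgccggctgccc
*Tgfb1*, chr7:25686752-25687001, plus strand: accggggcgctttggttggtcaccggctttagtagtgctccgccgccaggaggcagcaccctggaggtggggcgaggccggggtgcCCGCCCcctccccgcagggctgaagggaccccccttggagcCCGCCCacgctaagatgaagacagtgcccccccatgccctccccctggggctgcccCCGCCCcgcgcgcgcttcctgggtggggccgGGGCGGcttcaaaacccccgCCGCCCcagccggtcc
*Tgfb2*, chr1:186705990-186706239, minus strand: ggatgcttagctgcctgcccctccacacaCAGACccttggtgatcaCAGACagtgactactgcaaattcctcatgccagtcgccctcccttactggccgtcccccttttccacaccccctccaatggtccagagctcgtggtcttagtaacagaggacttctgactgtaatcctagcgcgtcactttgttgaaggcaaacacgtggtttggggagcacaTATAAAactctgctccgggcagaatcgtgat

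The *Tgfb1* window of 250 bases was 75.2% G or C, held 5 GC boxes and had no match to the SMAD box or the TATA box. The *Tgfb2* window of the same length, which overlaps an annotated exon of 1 other gene, was 53.6% G or C and held 2 SMAD boxes and 1 TATA box but no GC box. Of 32851 promoter windows of this length, 42.2% held a SMAD box, 32.7% a GC box, 12.4% a TATA box and 6.75% an AP-1 site. The *Tgfbi* window is shown up to the first base annotated as exon, which leaves 187 bases with 2 SMAD boxes and 1 GC box, and 34.2% and 22.2% of all promoters held such matches in the same stretch. None of the 3 windows held an AP-1 site. A match describes the letters only and does not show binding.

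*Tgfbi* encodes a secreted matrix protein that binds collagens and integrins and owes its name to its induction by TGF-beta. It was the 1 member in which every HET mouse lay above every WT mouse. The gene (ENSMUSG00000035493, chromosome 13, 56609603 to 56639339, plus strand in the count table) has 17 exons in the transcript with its longest coding sequence, which encodes 683 amino acids. HET mice 1, 2 and 3 had 21.9, 21.9 and 29.9 CPM. WT mice 1, 2 and 3 had 7.69, 13.5 and 17.4 CPM. The lowest HET mouse was thus above the highest WT mouse, while the WT mice differed among themselves more than the HET mice did, with a coefficient of variation of 38.1% against 18.7%.

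The mean of *Tgfbi* was 24.6 ± 4.60 CPM in HET and 12.9 ± 4.89 CPM in WT mice (SD, n = 3), with a log2 fold change of 0.93 (SE 0.28, 95% confidence interval 0.28 to 1.57), or 1.90-fold. Its unadjusted p of 0.0108 ranked 432 among the genes tested, and its adjusted p of 0.368 did not pass the threshold of 0.05. The test of DESeq2 called it higher in HET (log2 fold change 0.94, adjusted p = 0.0119), as did edgeR without the filter on low counts (adjusted p = 0.00449). Without WT mouse 1, the lowest of the 6, the log2 fold change was 0.67 (adjusted p = 0.374), and without WT mouse 3 it was 1.22 (adjusted p = 0.0762).

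Across all 14696 genes, the edgeR test called 21 genes, or 0.143%, higher and 1 gene, or 0.00680%, lower in HET mice. Of the members, 0 of 10 passed in either direction, and 2 had an unadjusted p below 0.05 with a higher level in HET, *Tgfbi* and *Tgfb1*, against 5.76% of all genes. DESeq2 called 1.48% of all genes higher and, of the members, *Tgfbi* alone. All 10 members had a log2 fold change above 0, compared with 45.6% of all genes, with a median of 0.20 against -0.02. Genotypes were separated upward in 1 of 10 members and in 7.55% of all genes. Without WT mouse 3, every HET mouse lay above both other WT mice in 5 members, *Tgfbi*, *Tgfb1*, *Tgfbr2*, *Ltbp3* and *Ltbp4*, and in 12.7% of all genes.

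**Figure D1:**
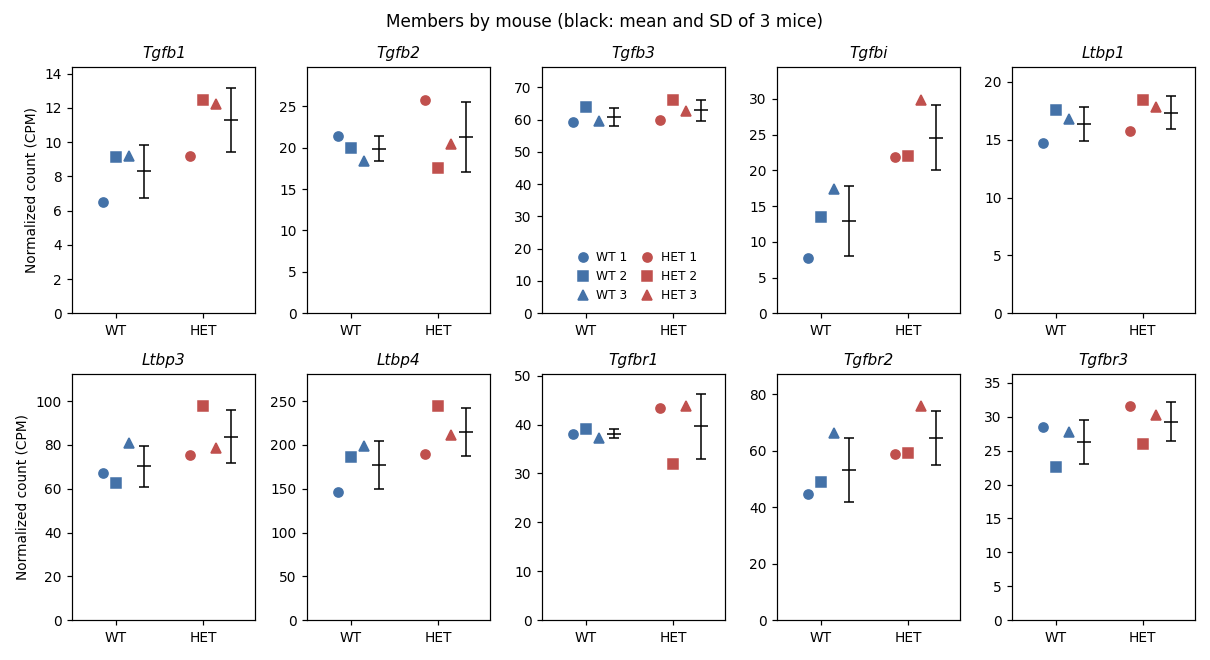
Normalized counts (CPM, linear axes from 0) of the 10 members in the 3 WT mice (blue) and the 3 HET mice (red), with the mean and SD of each genotype in black and the mouse number given by the marker. In *Tgfbi* the HET mice lie between 21.9 and 29.9 CPM, all above the WT mice, and in the other 9 panels the genotypes overlap. The overlap ends without WT mouse 3 in *Tgfb1*, *Tgfbr2*, *Ltbp3* and *Ltbp4*, and without HET mouse 1 in *Tgfb1*, *Ltbp1* and *Ltbp4*. It also ends without HET mouse 2 in *Tgfbr1* and *Tgfbr3*, and without WT mouse 2 in *Tgfb3*.

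The ligands ranged from a gene with a difference in mean to one that was almost level. *Tgfb1* (ENSMUSG00000002603, chromosome 7, 25687002 to 25705077, plus strand, 7 exons, 390 amino acids) is the ligand best known from fibrosis and immune regulation. It had 9.16, 12.5 and 12.2 CPM in HET mice 1 to 3 and 6.52, 9.15 and 9.20 CPM in WT mice 1 to 3. The genotypes overlapped through a single pair, HET mouse 1 lying just below WT mouse 3. The means were 11.3 ± 1.85 and 8.29 ± 1.53 CPM, with a log2 fold change of 0.44 (SE 0.17, 95% confidence interval 0.06 to 0.83, unadjusted p = 0.0289, adjusted p = 0.544). Without WT mouse 1 the log2 fold change was 0.30, and without WT mouse 3 it was 0.53 (adjusted p = 0.458).

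*Tgfb2* (ENSMUSG00000039239, chromosome 1, 186622792 to 186705989, minus strand, 8 exons, 442 amino acids) is a ligand with roles in heart and skeletal development that depends on betaglycan for receptor binding. It had 25.8, 17.5 and 20.4 CPM in HET mice and 21.4, 19.9 and 18.4 CPM in WT mice. HET mice held both the highest and the lowest value. The log2 fold change was 0.10 (SE 0.14, 95% confidence interval -0.22 to 0.41, adjusted p = 0.936), and without HET mouse 1 it was -0.07.

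*Tgfb3* (ENSMUSG00000021253, chromosome 12, 86056745 to 86079041, minus strand, 7 exons, 412 amino acids), known for its role in palate closure, had the smallest spread of all members in HET mice. HET mice had 59.8, 66.3 and 62.6 CPM and WT mice 59.2, 64.1 and 59.4 CPM. The coefficient of variation was 5.16% in HET and 4.47% in WT mice, and the log2 fold change of 0.05 (SE 0.08) had a 95% confidence interval of -0.14 to 0.23, or from 0.907-fold to 1.18-fold. Its sign turned to -0.02 when the trend of each library on GC content was removed.

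The latent binding proteins hold the ligand in the matrix. *Ltbp4* (ENSMUSG00000040488, chromosome 7, 27305136 to 27337692, minus strand, 33 exons, 1666 amino acids) also takes part in elastic fiber assembly and is a known modifier of muscular dystrophy in mice. It had 189, 244 and 211 CPM in HET and 146, 186 and 199 CPM in WT mice. HET mouse 1 lay below WT mouse 3, and WT mouse 1 was the lowest. The log2 fold change was 0.28 (SE 0.13, 95% confidence interval -0.01 to 0.57, adjusted p = 0.663), and without WT mouse 3 it was 0.37 (adjusted p = 0.451).

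*Ltbp3* (ENSMUSG00000024940, chromosome 19, 5740904 to 5758532, plus strand, 28 exons, 1253 amino acids), which is needed for the secretion of the latent ligand, had 75.2, 97.6 and 78.6 CPM in HET and 67.3, 62.7 and 80.7 CPM in WT mice. A single HET mouse, number 2, lay above all WT mice. Its log2 fold change was 0.25 (SE 0.13, adjusted p = 0.713), and without WT mouse 3, which alone made the genotypes overlap, it was 0.37 (adjusted p = 0.391). *Ltbp1* (ENSMUSG00000001870, chromosome 17, 75005568 to 75392512, plus strand, 35 exons, 1713 amino acids), a fibrillin-bound carrier of the latent complex, had 15.7, 18.5 and 17.8 CPM in HET and 14.7, 17.6 and 16.8 CPM in WT mice, with a log2 fold change of 0.08 (SE 0.12, adjusted p = 0.935).

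*Ltbp4* and *Ltbp3* were the members with the highest GC content, 62.2% and 58.3%. In the fifth of all genes with the highest GC content the median log2 fold change was 0.05, and in the fifth with the lowest it was -0.08. With each library's trend on GC content removed, the log2 fold change was 0.15 for *Ltbp4*, 0.13 for *Ltbp3* and 0.02 for *Ltbp1*, whereas *Tgfbi* kept 0.87 and *Tgfb1* 0.38. The part of GC content in the differences of the latent binding proteins was not tested beyond this correction.

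Of the receptors, *Tgfbr2* had the largest difference in mean. *Tgfbr2* (ENSMUSG00000032440, chromosome 9, 116084293 to 116175360, minus strand, 8 exons, 592 amino acids) encodes the type II receptor kinase that binds the ligand first. It had 58.9, 59.3 and 75.6 CPM in HET and 44.8, 48.8 and 66.1 CPM in WT mice. WT mouse 3 was above 2 of the 3 HET mice. The log2 fold change was 0.28 (SE 0.15, 95% confidence interval -0.07 to 0.62, adjusted p = 0.782). Without WT mouse 3 it was 0.47 (adjusted p = 0.223), and all HET mice lay above the remaining WT mice.

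*Tgfbr1* (ENSMUSG00000007613, chromosome 4, 47353222 to 47414931, plus strand, 9 exons, 503 amino acids), the type I receptor kinase that phosphorylates SMAD2 and SMAD3, had 43.3, 31.9 and 43.7 CPM in HET and 38.1, 39.0 and 37.2 CPM in WT mice. The WT mice were close together, while HET mouse 2 was below all of them and the other HET mice above. Its log2 fold change was 0.06 (SE 0.12, 95% confidence interval -0.21 to 0.33), with a value of -0.01 without HET mouse 1 or without HET mouse 3. *Tgfbr3* (ENSMUSG00000029287, chromosome 5, 107106570 to 107289629, minus strand, 17 exons, 850 amino acids), which encodes betaglycan, had 31.5, 26.0 and 30.3 CPM in HET and 28.5, 22.6 and 27.8 CPM in WT mice, and a log2 fold change of 0.15 (SE 0.12, 95% confidence interval -0.11 to 0.42). An exon of *Tgfbr3* overlaps 1 other annotated gene on its strand, and reads in such overlaps may have been left out by the counting.

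WT mouse 1 was the lowest WT mouse in 6 of the 10 members, *Tgfb1*, *Tgfb3*, *Tgfbr2*, *Ltbp1*, *Ltbp4* and *Tgfbi*. Without it the median log2 fold change of the members was 0.16, and all 10 stayed above 0. Over the settings that leave out 1 mouse, the median lay between 0.14 and 0.28. Above 0 were 8 members without HET mouse 1, 9 without HET mouse 3 and all 10 without any other mouse.

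**Figure D2:**
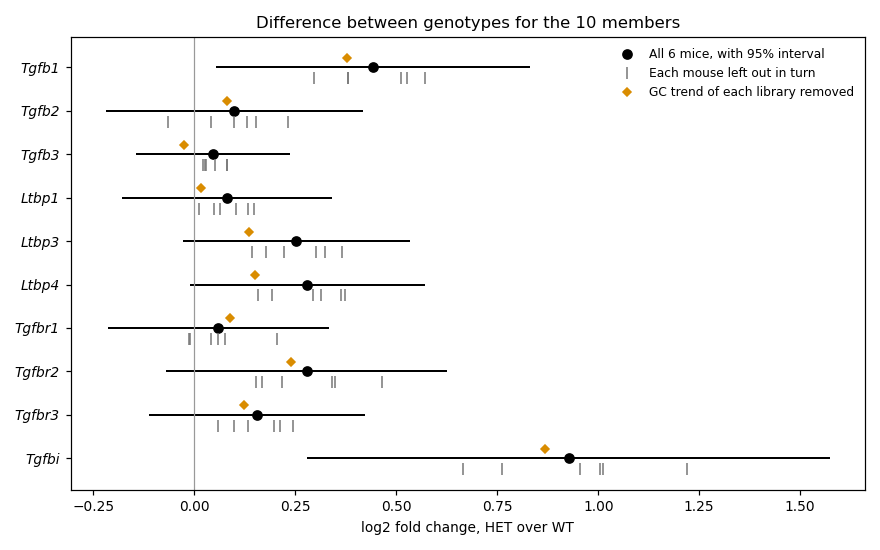
Log2 fold change of HET over WT for each member with all 6 mice (black circles, line for the 95% confidence interval), with each mouse left out in turn (gray ticks) and with the GC trend of each library removed (orange diamonds). The intervals of *Tgfbi* (0.28 to 1.57) and *Tgfb1* (0.06 to 0.83) lie above 0 before adjustment for the number of genes, and those of the other members include 0.

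Levels of different genes were compared per kilobase of the union of their exons in the count table, as RPKM, the CPM divided by that length. In WT mice *Ltbp4* was highest with 27.4 ± 4.26 RPKM, followed by *Tgfb3* with 18.0 ± 0.805 RPKM and *Ltbp3* with 13.5 ± 1.80 RPKM (SD, n = 3), and none of these ranges overlapped. *Tgfbr2*, *Tgfbr1*, *Tgfbi*, *Tgfbr3* and *Tgfb2* followed with means between 6.50 and 3.43 RPKM, and each overlapped its neighbor in this order. *Tgfb1* with 1.64 ± 0.304 RPKM and *Ltbp1* with 1.56 ± 0.142 RPKM were lowest and overlapped each other. In HET mice the order was the same except that *Tgfbi*, at 9.18 ± 1.72 RPKM, stood above the receptors rather than among them, and exceeded *Tgfbr2* (7.89 ± 1.17 RPKM) in all 3 mice with overlapping ranges. The neighbors *Tgfb3* and *Ltbp3*, and *Tgfbr3* and *Tgfb2*, also overlapped in HET mice.

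The level of *Tgfb1* per length depended on the length used, because its union of exons has 5042 bases and its longest transcript 2573. For *Ltbp3* and *Tgfbi* the union in the count table, 5190 and 2678 bases, was shorter than the longest GENCODE transcript, 5729 and 3003 bases. The lengths thus come from different annotations, which also bears on the place of *Tgfbi*. With the longest transcript it rose from place 9 to 8 in HET mice and stayed at 9 in WT mice. In WT mice *Tgfbr1* then stood above *Tgfbr2*, and *Tgfbr3* above *Tgfbi*. With the longest transcript, *Tgfb1* had 4.39 ± 0.719 RPKM in HET and 3.22 ± 0.595 RPKM in WT mice, against 4.15 ± 0.825 and 3.89 ± 0.295 RPKM for *Tgfb2*. The first 3 places were unchanged with this length in both genotypes.

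**Figure D3:**
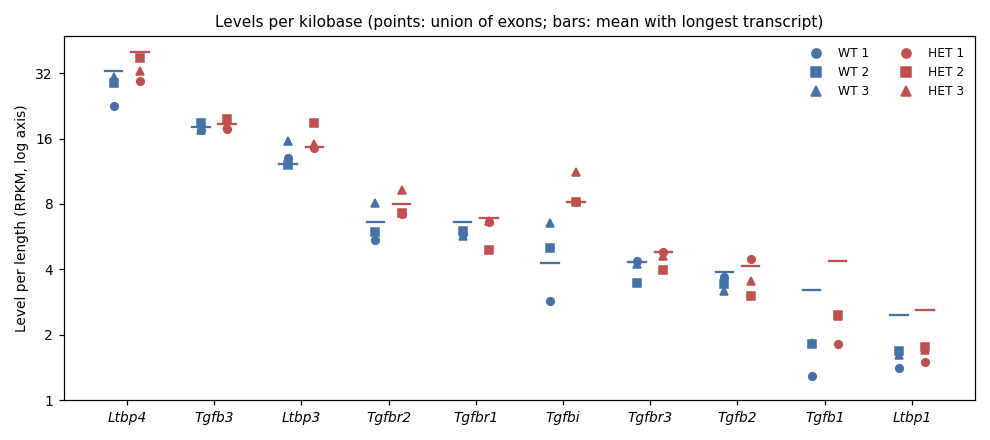
Level per kilobase (RPKM, log axis) of the 10 members in each WT (blue) and HET (red) mouse, ordered by the WT mean, with points for the union of exons and bars for the genotype mean with the longest transcript. *Ltbp4*, *Tgfb3* and *Ltbp3* are the 3 highest with both lengths, and the level of *Tgfb1* rises most with the longest transcript.

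*Tgfb3* made up most of the ligand mRNA in both genotypes. Its share of the summed RPKM of the ligands was 73.8%, 78.1% and 75.7% in HET mice and 77.8%, 78.3% and 77.9% in WT mice. The share of *Tgfb1* was 7.59%, 9.87% and 9.92% in HET and 5.75%, 7.50% and 8.08% in WT mice. The mean shares of *Tgfb2* were 15.0% and 14.9%. The difference in the *Tgfb1* share was 2.01 percentage points (two-sided exact permutation test, p = 0.20, adjusted p = 0.675 over 9 shares). With longest transcripts the *Tgfb1* share was 16.1% in HET and 12.8% in WT mice, and the *Tgfb3* share 68.5% and 71.7%.

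Among the latent binding proteins *Ltbp4* took 65.1 ± 0.743% in HET and 64.3 ± 3.24% in WT mice (SD, n = 3), and *Ltbp1* 3.26% and 3.70%. Among the receptors *Tgfbr2* took 42.8 ± 3.67% and 39.5 ± 4.99%, and *Tgfbr1* 32.8 ± 2.62% and 35.9 ± 3.79%. All 9 shares overlapped between genotypes, with exact p-values of 0.20 or more, where 0.1 is the smallest that 3 against 3 mice can give. The summed level of the latent binding proteins was 51.0 ± 6.64 RPKM in HET and 42.5 ± 5.50 RPKM in WT mice, that of the ligands 24.5 ± 0.568 and 23.1 ± 0.960 RPKM, and that of the receptors 18.4 ± 2.24 and 16.4 ± 1.44 RPKM, each with an exact permutation p of 0.20.

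The other genes of the pathway were taken from a list of 62, of which 60 were tested. *Ltbp2*, *Skil*, *Smad7* and *Pmepa1* stand both among the induced targets and in another group below, and are counted once here. The list was drawn up with earlier results of these data known, so its counts are descriptive and not an independent test. None passed the adjusted threshold of edgeR in either direction. Of the 60, 47 had a log2 fold change above 0, 22 had an unadjusted p below 0.05 with a higher level in HET and 2 with a lower level, where 5.76% and 2.0% of all genes did. Every HET mouse lay above every WT mouse in 21 and below in 3, against 7.55% and 6.02% of all genes. DESeq2 called 12 of the 60 higher and 0 lower, against 1.48% and 0.0544% of all genes, and the 12 were *Fbn1*, *Fbln1*, *Itgb3*, *Thbs1*, *Mmp2*, *Mmp14*, *Plau*, *Dcn*, *Bgn*, *Col3a1*, *Lox* and *Loxl2*, named after their values were seen. The median over the list was 0.22.

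The group listed under latent storage and matrix anchorage, which also holds general matrix genes, had the highest median, 0.90 over 8 genes. All were above 0 and 7 had an unadjusted p below 0.05. At the top was *Fbln1*, a fibulin of elastic fibers and basement membranes, with 6.20, 8.83 and 7.70 CPM in HET and 1.61, 2.59 and 5.47 CPM in WT mice, and a log2 fold change of 1.19 (SE 0.39, adjusted p = 0.431). At the bottom was *Lrrc32*, a cell-surface anchor of latent TGF-beta, with a log2 fold change of 0.22 (SE 0.15, adjusted p = 0.846). In *Fbln1* the genotypes were separated, and in *Lrrc32* they overlapped.

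Among 12 genes that activate latent TGF-beta, 11 were above 0 and 6 had an unadjusted p below 0.05, with a median of 0.44. *Thbs1*, the gene of thrombospondin 1, which releases the ligand from its propeptide, had 44.1, 34.2 and 49.1 CPM in HET and 11.5, 20.0 and 20.5 CPM in WT mice, and a log2 fold change of 1.29 (SE 0.23, adjusted p = 0.105). *Itgb6*, an integrin chain that pulls on the propeptide, was at -0.07 (SE 0.12). Among the 10 co-receptors, decoys and proteoglycans, 9 were above 0 with a median of 0.52, from *Tgfbrap1*, a receptor-associated protein, at -0.04 (SE 0.09) to *Fmod*, the collagen- and TGF-beta-binding fibromodulin, at 1.73 (SE 0.58, adjusted p = 0.566).

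The 15 SMADs and their regulators lay close to 0, with a median of -0.04, 6 genes above and 9 below. *Pmepa1*, a SMAD inhibitor, was at the top with 0.22 (SE 0.14), and *Crebbp*, a transcriptional coactivator, at the bottom with -0.20 (SE 0.09, unadjusted p = 0.0471, adjusted p = 0.633). Of 19 genes listed as induced targets of TGF-beta, not all of which need respond so in muscle, 16 were above 0. Of these 19, 6 had an unadjusted p below 0.05 upward and 1 downward, with a median of 0.30. The ends of this group were *Col1a1*, the gene of the alpha 1 chain of type I collagen, at 1.23 (SE 0.41, adjusted p = 0.549), and *Id1*, an inhibitor of differentiation, at -0.35 (SE 0.12, adjusted p = 0.422), with 18.5, 16.1 and 18.8 CPM in HET and 19.4, 23.7 and 25.0 CPM in WT mice.

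**Figure D4:**
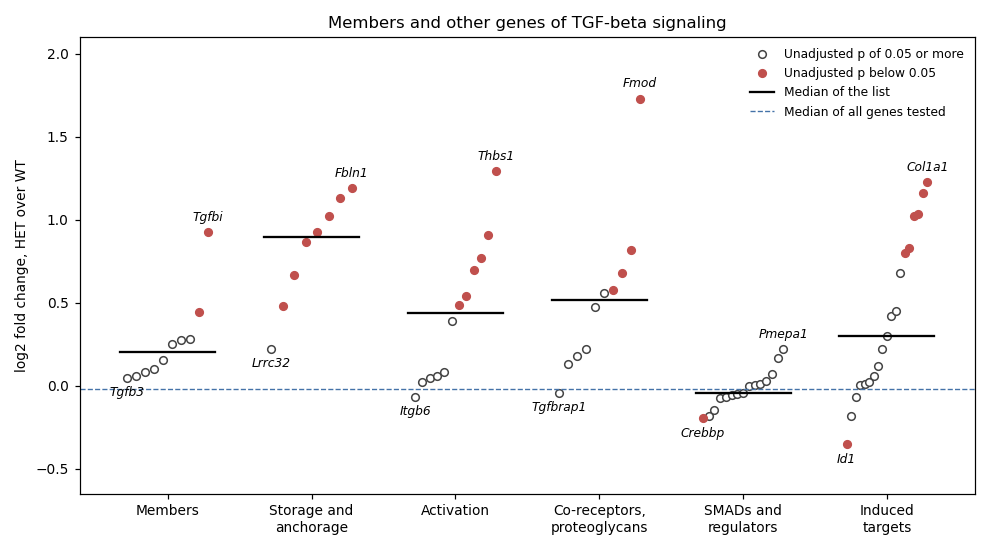
Log2 fold change of HET over WT for each member and for each gene of 5 groups of the pathway list, with filled points for an unadjusted p below 0.05, black lines for the median of each group and a dashed line for the median of all genes tested (-0.02). The storage and anchorage group has the highest median (0.90) and the SMADs and regulators the lowest (-0.04). The genes at both ends of each group are named.

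Markers of several cell types moved with the genotype in the same libraries. Whole muscle was sequenced, so that more cells of a type and more RNA per cell cannot be told apart. The 12 markers of fibro-adipogenic progenitors and fibroblasts were all above 0, 1 past the adjusted threshold, and summed to between 2744 and 3850 CPM in HET and 1322 and 2125 CPM in WT mice. The 13 macrophage markers were all above 0, 5 past the threshold, with 119 to 153 CPM in HET and 71.6 to 95.7 CPM in WT mice. The 10 tenocyte markers were all above 0 with 0 past the threshold, and summed to 409 to 736 CPM in HET and 132 to 328 CPM in WT mice.

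Adipocyte markers ranged from 70.0 to 222 CPM in HET and from 24.6 to 97.1 CPM in WT mice, with 5 of 5 above 0 and none past the threshold. The overlap came from a single pair, HET mouse 1 at 70.0 CPM lying below WT mouse 3 at 97.1 CPM. The other WT mice were at 24.6 and 26.7 CPM. By contrast, 4 of 10 endothelial markers, 4 of 7 of vascular smooth muscle, 2 of 7 of pericytes, 3 of 5 of Schwann cells and 2 of 6 of muscle fibers were above 0, with none past the threshold in either direction. The summed pericyte markers were 974 to 1142 CPM in HET and 1164 to 1280 CPM in WT mice, and all HET mice lay below all WT mice. This separation came from *Rgs5*, chosen after its values were seen, with 494 to 642 CPM in HET and 666 to 760 CPM in WT mice, and without it the sums overlapped at 448 to 500 CPM and 445 to 519 CPM. No marker was at 0 reads in all libraries. WT mouse 1 had the lowest sum of the fibroblast, macrophage and tenocyte markers as well as the lowest *Tgfbi* and *Tgfb1*. None of the 10 members is a marker on these lists, but 7 genes of the pathway list are, among them *Dcn*, *Fmod* and *Col1a1*. The part of these cell types in the differences of *Tgfbi*, of *Tgfb1* and of the pathway list was not tested.

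**Figure D5:**
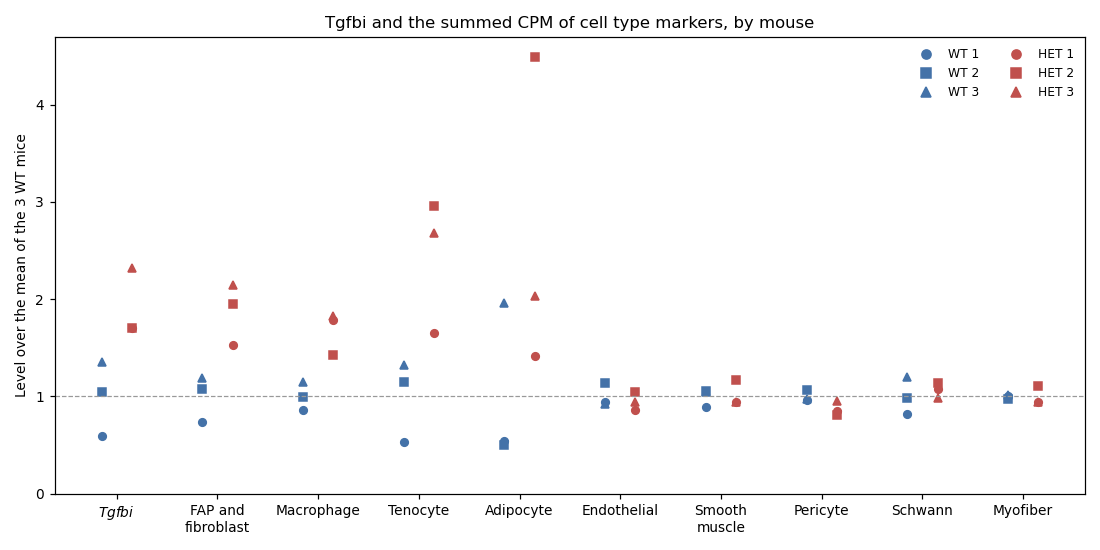
Level of *Tgfbi* and summed CPM of the markers of each cell type in each mouse, divided by the mean of the 3 WT mice (linear axis from 0, dashed line at 1), with WT in blue and HET in red. *Tgfbi* lies between 1.70 and 2.32 in HET mice, and the fibroblast sum between 1.53 and 2.15, the macrophage sum between 1.42 and 1.83 and the tenocyte sum between 1.65 and 2.96 are likewise above all WT mice, while the endothelial and muscle fiber sums overlap.

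The genes most like a member across the 6 mice were found from the root mean square difference of log2 CPM, each gene centered on its own mean. Among the nearest to *Tgfbi* were *Olfml3*, a secreted olfactomedin-domain protein, at 0.082 and *Mmp19*, a matrix metalloproteinase, at 0.093, where the median gene was at 0.659. *Olfml3* had 17.4, 19.1 and 25.2 CPM in HET and 7.32, 12.2 and 14.9 CPM in WT mice, so that the mice stood in nearly the same relation as for *Tgfbi*. Nearest to *Tgfb1* were *Cyba*, the small subunit of the phagocyte oxidase, at 0.035, *Eva1b* at 0.058 and *Cenpt*, a kinetochore gene, at 0.068, against a median of 0.368.

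The genes nearest to *Tgfb3* were *Ap1b1*, an adaptor of clathrin coats, at 0.018, *Ehbp1l1* at 0.018 and *Blcap* at 0.023, with a median gene at 0.186. For *Tgfb2* they were *Chml*, a Rab escort protein, at 0.056, *Fancm*, a DNA repair helicase, at 0.057 and *4933431E20Rik* at 0.058, with a median of 0.255. The nearest genes named here had their own log2 fold changes between 0.40 and 0.44 for *Tgfb1*, 0.83 and 1.02 for *Tgfbi*, 0.02 and 0.08 for *Tgfb3* and 0.04 and 0.07 for *Tgfb2*, none with an adjusted p below 0.05. Because likeness was measured over both genotypes, fold changes close to that of the member follow from the choice of these genes. Over 6 mice such likeness is a description of these libraries, which share their scaling factors.

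The fewest reads of a member in a library were 195, for which counting alone gives a relative SD of 7.16%, and the most were 9825. Between mice of a genotype the coefficients of variation of the members ran from 2.43% to 38.1%.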

How the data were processed

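RNA of the soleus was sequenced from 3 HET and 3 WT mice. The authors aligned the reads with STAR 2.7.3a to GRCm38.p6 and deposited raw counts per gene from featureCounts 2.0.3. A second deposited table holds a normalized signal, the count divided by 1 size factor per library between 0.773 and 1.42, and was used to find the members by symbol. The remaining deposited file holds the authors' own DESeq2 comparison, with fold changes and p-values, and was not used. All values are from the raw counts.

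Genes were kept with filterByExpr of edgeR 4.0.16 at a minimum count of 10, scaled with TMM and tested with the robust quasi-likelihood test with genotype as the only term, two-sided, with Benjamini-Hochberg adjustment and a threshold of 0.05. The SE is the log2 fold change over the square root of F. CPM are given as mean ± SD over 3 mice. Analyses used R 4.3.3, limma 3.58.1, DESeq2 1.42.0, Python 3.11.15, pandas 2.3.3, SciPy 1.17.1 and matplotlib 3.10.9, and were tested on simulated data. Gene models, longest transcripts and GC content came from GENCODE M21 of the same build, and the union of exons from the count table. Shares were compared with the exact permutation test.

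The members and all lists were chosen with earlier results of these data known. Named singly are the members, the pathway genes at the ends of each group, the 3 genes nearest to the ligands and *Tgfbi*, *Mustn1* and the genes of sex. *Acta1*, *Ckm*, *Rgs5* and the pathway genes called by DESeq2 were named after their values were seen, and 1 gene that this rule names is not reported here. The alternatives were RLE scaling, no filter, DESeq2, limma-voom, a block for the replicate number, the GC trend removed with and without the block, each mouse left out, and the longest transcript as length. Libraries of a genotype differed by more than sampling noise, and nothing in the labels says which mice shared a litter or cage.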

Additional observations from a re-analysis of the deposited data

How the results depend on the processing

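The 10 members were recomputed under 13 alternatives each, which gave 130 values, of which 122 kept their sign and their side of the threshold. The log2 fold change of *Tgfbi* passed without the filter on low counts (0.93), with DESeq2 (0.94) and with the replicate block (0.99, adjusted p = 0.0423), but not with the block and the GC trend removed (0.91, adjusted p = 0.0823), with limma-voom (adjusted p = 0.233), with RLE scaling (adjusted p = 0.378) or with the GC trend removed alone (adjusted p = 0.401), and its adjusted p lay between 0.00449 and 0.922 over the alternatives. The sign turned for *Tgfb3* with the GC trend removed (-0.024), also with the block (-0.023), for *Tgfb2* without HET mouse 1 (-0.066), and for *Tgfbr1* without HET mouse 1 (-0.0094) or HET mouse 3 (-0.012). The causes were not tested. With each mouse left out, log2 fold changes lay between 0.30 and 0.57 for *Tgfb1*, -0.066 and 0.23 for *Tgfb2*, 0.02 and 0.08 for *Tgfb3*, -0.012 and 0.20 for *Tgfbr1*, 0.15 and 0.47 for *Tgfbr2*, 0.06 and 0.25 for *Tgfbr3*, 0.01 and 0.15 for *Ltbp1*, 0.14 and 0.37 for *Ltbp3*, 0.16 and 0.37 for *Ltbp4*, and 0.67 and 1.22 for *Tgfbi*. The difference in the *Tgfb1* share was 3.34 percentage points with the longest transcript.

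Genes called higher and lower numbered 386 and 18 without the filter, where 29081 genes were tested, 218 and 8 with DESeq2, 3 and 0 with limma-voom, 114 and 2 with the block, 7 and 1 with the GC trend removed and 95 and 2 with both. With 1 mouse left out they ranged from 0 to 77 and from 0 to 6, the highest without WT mouse 3 and 0 without HET mouse 1, HET mouse 3, WT mouse 1 or WT mouse 2. Pathway genes called higher numbered 15 without the filter, 12 with DESeq2, 10 with the block, 5 with the block and the GC trend removed, 0 with RLE scaling, limma-voom or the GC trend removed alone, and from 0 to 3 with 1 mouse left out. Members with every HET mouse above every WT mouse numbered from 1 to 5 with 1 mouse left out, a count chosen after seeing the data.

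Same-numbered mice of the 2 genotypes had correlations of 0.20, -0.01 and -0.03 between their deviations from the group means, and not every mouse correlated best with its own number, so that the numbers were not taken to pair the mice. Counting error is 7.16% at most for a member, and the number of mice limits the precision.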
